A study of Bos taurus with 30 samples.

Results

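Guidance genes were taken as the genes whose cattle symbol names a class 3 to 7 semaphorin, a plexin, a neuropilin, a netrin, DCC, a UNC5 receptor, a slit, a ROBO receptor, an ephrin or an Eph receptor. Of 35092 genes counted, 71 carried such a symbol, and 64 of these had at least 10 counts in at least 3 libraries, as did 18122 genes in all. The 64 genes are 19 semaphorins, 8 plexins, 2 neuropilins, 2 netrins, 4 UNC5 receptors, 3 slits, 3 ROBO receptors, 7 ephrins and 14 Eph receptors, with UNC50 and UNC5CL, which match the letters of the symbols but are not netrin receptors. The 7 genes that were too low are EFNA1, NTN4, NTN5, DCC, PLXNB3, ROBO3 and SEMA3D. EFNA1 and NTN5 were listed at 0 in every library, as was SOX2, a gene of the epiblast, and whether their reads were lost in counting was not tested.

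The genes were followed in 30 poly(A)-selected libraries of 17 Holstein embryos recovered at day 15, when the conceptus elongates. Embryos produced in vitro (IVP) came from oocytes of slaughterhouse ovaries, matured, fertilized and cultured without serum and moved at the blastocyst stage into a pair of recipient cows, each carrying many embryos. In vivo (IVV) embryos came from a pair of donor cows that were superovulated and inseminated with semen of the same bull. Only embryos with a visible embryonic disc (ED) were kept, and the ED, which forms the body, and pieces of the extra-embryonic membranes (EEM), which form the placenta, were frozen apart. Discs gave 7 IVP and 9 IVV libraries and membranes 6 IVP and 8 IVV libraries, with both from 13 embryos (5 IVP and 8 IVV). The IVP and IVV groups thus differ in the oocyte donors and in the cow that carried the embryo as well as in the procedure, and these cannot be told apart. The study reports that IVP embryos were shorter than IVV embryos and less often held a disc. Size and selection for a disc thus differ with the procedure too, and their part was not tested. The labels give neither the sex nor the size of an embryo.

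Guidance genes encode secreted or membrane-bound cues and the receptors that turn them into attraction or repulsion of moving cells and growing axons. Class 3 semaphorins are secreted and bind neuropilins, which signal through plexins, while most other semaphorins bind plexins directly. Netrins act through DCC and UNC5 receptors, slits through ROBO receptors, and ephrins, which are tied to the cell surface, through Eph receptors on a neighbouring cell. Several of these genes are also used before nerves form, when mesoderm leaves the primitive streak, blood vessels take shape and tissue borders are set.

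Library totals ran from 48713218 to 63037371 counts, so 3 counts, taken as the floor, stood for about 0.06 CPM, the count scaled to the size of the library. CPM were scaled with TMM factors and not by gene length, so levels were not compared between genes. The discs carried the epiblast gene POU5F1 at means of 29.2 CPM (IVP) and 95.0 CPM (IVV) against 1.61 and 1.24 CPM in the EEM, and TBXT, a gene of the streak, was at 0 in all 14 EEM libraries. The trophoblast marker list summed to 4450 to 27300 CPM in IVP discs (median 15200) and 7310 to 14000 CPM in IVV discs (median 10100). In the EEM it summed to 11600 to 29200 CPM (IVP, median 17700) and 9710 to 20300 CPM (IVV, median 14500). Transcripts of this list were thus present in the disc samples of both procedures, at sums that overlap those of the EEM. XIST, the RNA that coats an inactive X chromosome, was under 1 CPM in all 7 IVP discs and all 6 IVP EEM, but in IVV embryos only in VE3 and VE5, the other discs holding 45.1 to 150 CPM and the other EEM 97.2 to 424 CPM. A set of 6 libraries stood apart: of 10821 genes with a median over 2 CPM, 110 to 282 lay more than 4-fold below the median of the other libraries of their group, against 3 to 68 in the other 24. These were the discs of IVPF10, IVPF13, IVPF14 and VE19 and the EEM of IVPF14 and VE19.

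Most guidance genes that set the tissues apart were higher in the ED. Of 59 members tested in the 13 embryos with both tissues, 29 were higher in the ED and 0 lower, where 14.4% of all 16784 genes tested were called higher and 10.1% lower (edgeR's quasi-likelihood test with embryo as a block and Benjamini-Hochberg adjustment at 0.05). The median log2 fold change of the 59 was 0.63, beside -0.09 for all genes. At an unadjusted p under 0.05 there were 36 members, beside 37.1% of all genes, and DESeq2 called 32 higher and 1 lower, beside 16.7% and 10.2%. ROBO2, SEMA3A, SEMA3G and SEMA6D reached 10 counts only in discs and so entered the test only through the tissue in which they are high. Among the 55 members with 10 counts in a library of each tissue, 26 were called higher and 0 lower, where 1939 (higher) and 1683 (lower) of the 16190 such genes were called. Since the tissue was cut and sequenced in bulk, fewer cells of a type and less RNA per cell cannot be told apart in any value that follows. Of the 29, 15 were higher in the disc of every one of the 13 embryos, and the fewest embryos behind a call were 10.

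**Figure D1:**
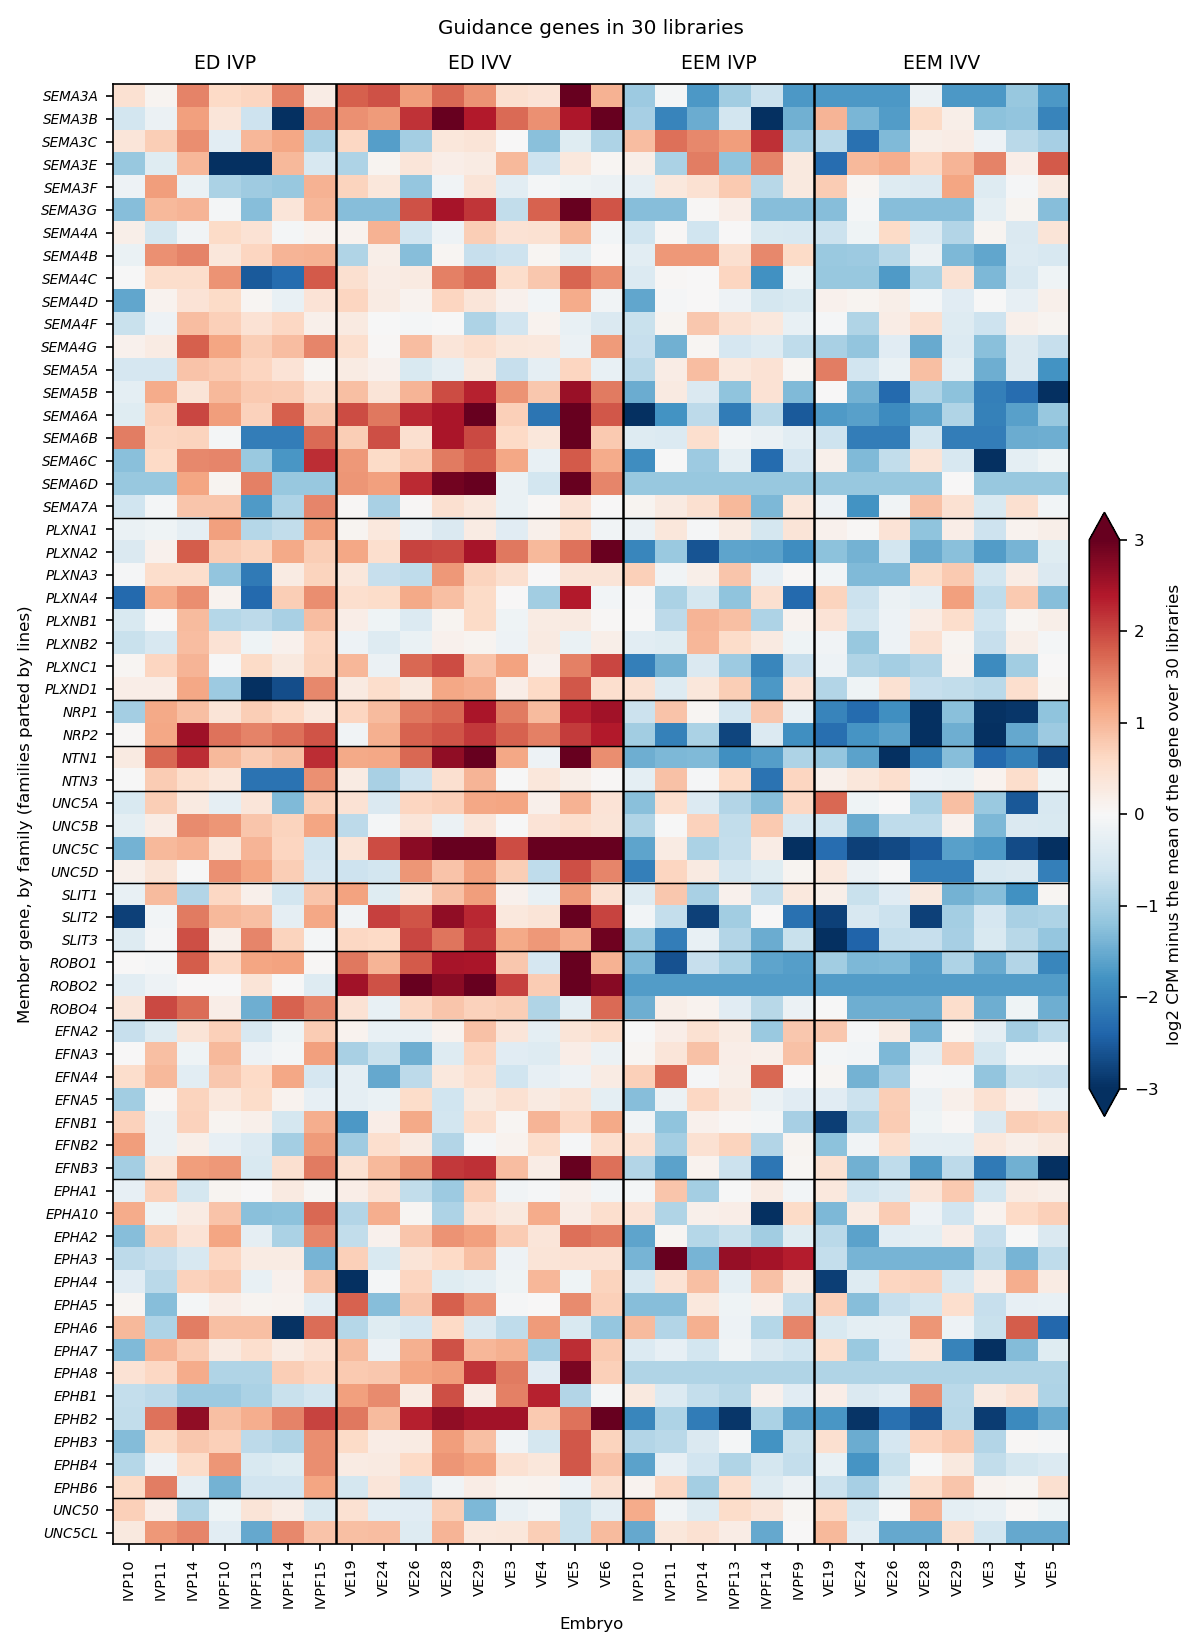
Level of the 64 guidance genes in the 30 libraries: each row is a gene, grouped by family, each column an embryo within ED IVP, ED IVV, EEM IVP and EEM IVV, and colour gives log2 CPM minus the mean of the gene over all libraries. Many receptors and cues are red in the IVV discs and blue in both EEM groups, with IVP discs between, and SEMA4C and PLXND1 are blue in the discs of IVPF13 and IVPF14.

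All 3 slits were called higher in the disc, as was their receptor ROBO1. SLIT3 ranged from 1.15 to 5.95 CPM in IVP discs (median 1.70) and from 2.34 to 11.7 CPM in IVV discs (median 3.81). In the EEM it ranged from 0.334 to 1.3 CPM (IVP) and from 0.107 to 1.09 CPM (IVV), with a log2 fold change of 2.39 ± 0.23 (SE, edgeR, adjusted p = 2.42e-07). Every one of the 13 embryos had more SLIT3 in its disc than in its membranes. ROBO1, a slit receptor, was higher in the disc by 2.85 ± 0.35 on the log2 scale (SE, edgeR, adjusted p = 4.49e-06). ROBO2, a second slit receptor, had 0 counts in all 14 EEM libraries, and its mean of 0.871 CPM in IVV discs was at least 14.8-fold higher than the floor of 3 counts per library.

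Both neuropilins, the co-receptors of class 3 semaphorins, were called. NRP2 ranged from 3.09 to 17.6 CPM in IVP discs (median 9.27) and from 2.78 to 15.9 CPM in IVV discs (median 10.3). In the EEM it lay at 0.414 to 2.24 CPM (IVP) and 0.322 to 1.38 CPM (IVV), so no disc fell into the range of the EEM. The log2 fold change was 3.25 ± 0.28 (SE, edgeR, adjusted p = 7.7e-08), and the disc was the higher tissue in all 5 IVP and all 8 IVV embryos. NRP1 was higher in the disc by 2.51 ± 0.51 (SE, edgeR, adjusted p = 0.0012), but in 11 of 13 embryos, and its levels are taken apart by procedure further on. Of the plexins, the signalling partners, 2 of 8 were called: PLXNA2 at 2.7 ± 0.26 (SE, log2, edgeR adjusted p = 3.13e-07) and PLXNC1, the receptor of SEMA7A, at 1.86 ± 0.24 (SE, log2, edgeR adjusted p = 9.73e-06). PLXNA2 held 0.778 to 3.78 CPM in IVP discs and 1.51 to 8.54 CPM in IVV discs, and 0.145 to 0.471 and 0.304 to 0.818 CPM in the EEM. PLXNA1, PLXNB1 and PLXNB2 had log2 fold changes between -0.08 and -0.05, with adjusted p from 0.672 to 0.77 (edgeR).

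Of 19 semaphorins tested, 10 were called higher in the disc, SEMA3A and SEMA6D among them, which entered the test only through the discs. SEMA6A ranged from 0.593 to 3.17 CPM in IVP discs (median 1.38), from 0.140 to 19.5 CPM in IVV discs (median 3.11), and from 0.0612 to 0.435 CPM in all EEM, with a log2 fold change of 3.40 ± 0.37 (SE, edgeR, adjusted p = 1.12e-06). The disc of VE4, at 0.140 CPM, was the one disc inside the range of the EEM. SEMA6D had at most 2 counts in any EEM library, and its mean of 0.477 CPM in IVV discs was at least 8.10-fold higher than the floor. Of the secreted class 3, SEMA3B was called, with a log2 fold change of 2.30 ± 0.38 (SE, edgeR, adjusted p = 0.000176), while SEMA3A had at most 4 counts in any EEM library. SEMA3C, SEMA3E and SEMA3F were not called, with log2 fold changes of -0.01, -0.71 and -0.24.

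NTN1, the netrin best known as a midline cue, was higher in the disc in all 13 embryos, by 3.57 ± 0.39 on the log2 scale (SE, edgeR, adjusted p = 1.35e-06). It ranged from 1.17 to 4.59 CPM in IVP discs and from 0.860 to 19.1 CPM in IVV discs, against 0.0364 to 0.489 CPM in all EEM. Its receptors UNC5C and UNC5B were called, at 3.66 ± 0.65 and 0.71 ± 0.15 (SE, log2, edgeR adjusted p = 0.000317 and 0.00117). UNC5A and UNC5D had log2 fold changes of 0.85 and 1.44 that missed the threshold (edgeR, adjusted p = 0.0801 and 0.113).

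Among 11 Eph receptors tested, 5 were called: EPHB2, EPHB3, EPHB4, EPHA2 and EPHA7. EPHB2 held 0.426 to 4.81 CPM in IVP discs (median 2.12) and 1.3 to 6.58 CPM in IVV discs (median 3.86). In the EEM it held 0.0654 to 0.373 CPM (IVP) and 0.0644 to 0.397 CPM (IVV), below the lowest disc of either procedure, with a log2 fold change of 3.80 ± 0.35 (SE, edgeR, adjusted p = 1.45e-07). The other 4 had log2 fold changes of 0.60 to 1.44. Of 7 ephrins, EFNB1 and EFNB3 were called, at 0.40 ± 0.14 and 2.20 ± 0.48 (SE, log2, edgeR adjusted p = 0.0422 and 0.00199). EFNB2, a ligand of EPHB4, had means of 125 ± 77.9 and 104 ± 35.4 CPM in discs and 105 ± 45.3 and 98.3 ± 30.9 CPM in EEM (SD, IVP n = 7 and 6, IVV n = 9 and 8), with a log2 difference of 0.00 ± 0.14 (SE).

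**Figure D2:**
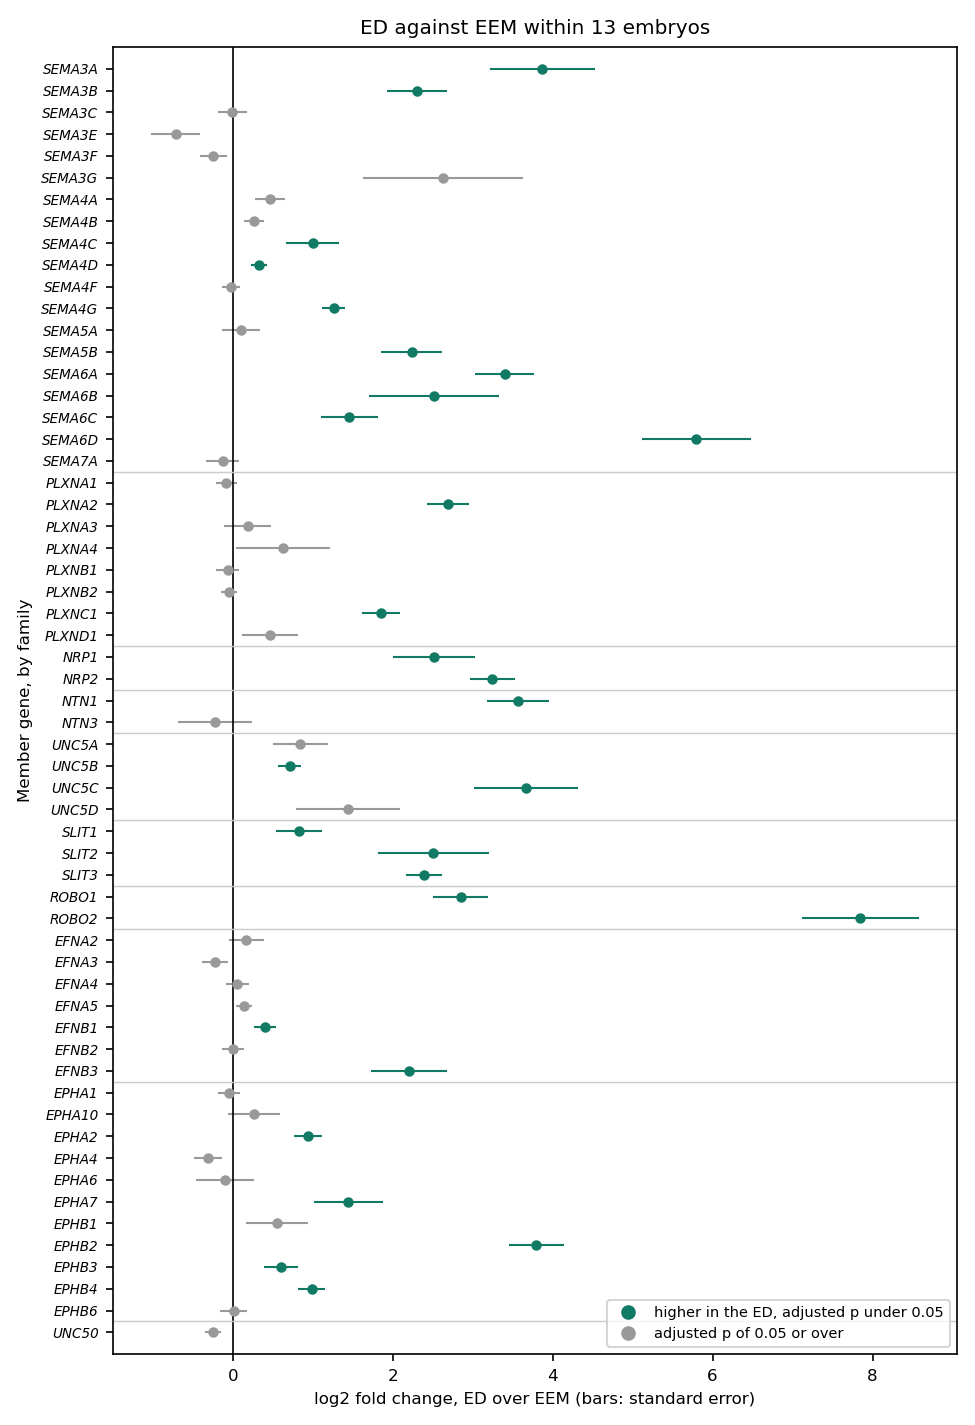
Difference between tissues for the 59 members tested: each row is a gene, grouped by family, the point is the log2 fold change of the ED over the EEM of the same embryo and the bar its standard error, in green where the adjusted p was under 0.05. The 29 green points all lie to the right of 0 and run from 0.33 (SEMA4D) to 7.85 (ROBO2, whose EEM libraries are all at 0, so that its size depends on the prior count).

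Between procedures each tissue was tested alone with 1 surrogate variable in place of the block. In the ED, the receptors UNC5C and NRP1 and the cue SEMA3B were lower in IVP than in IVV embryos, and the cue SEMA4B was higher, while the receptors ROBO2 and EPHB1 were near the floor in IVP discs. Of 57 members tested, 5 were lower in IVP discs and 1 higher, where 4.95% of all 15733 genes tested were called lower and 1.40% higher. Of the 5, ROBO2 and EPHB1 reached 10 counts only in IVV discs, and 94.5% of the 110 genes that entered the test through 1 procedure alone were called lower, so nothing is read from the calls of these receptors. Among the 55 members with 10 counts in a disc of each procedure 3 were lower and 1 higher, where 4.31% and 1.41% of the 15623 such genes were. The median log2 fold change of the 57 was -0.38, beside -0.01 for all genes. At an unadjusted p under 0.05 there were 21 members, beside 18.4% of all genes. DESeq2 called 9 lower and 3 higher, beside 7.00% and 2.61%. ROBO2 and EPHB1 are part of this median, of the 21 and of the 9, so these values include receptors from which nothing is read. The streak and mesoderm markers moved in the same discs: 7 of 9 tested were lower in IVP embryos, and their sum ran from 8.00 to 18.5 CPM in IVP discs and from 24.5 to 160 CPM in IVV discs, with MSGN1 at 0 in IVP discs. The blood and endothelium markers summed to 5.40 to 16.4 CPM and 4.72 to 55.6 CPM, with FLI1 and GATA1 at the floor in IVP discs. Of 6 of these markers with 10 counts in a disc of each procedure, 2 (KDR and LMO2) were lower in IVP discs. Of 4 epiblast markers tested, POU5F1 was lower in IVP discs (log2 fold change -1.72, edgeR adjusted p = 0.00479), the list summing to 194 to 498 CPM in IVP and 174 to 908 CPM in IVV discs. Of 4 maternal uterus markers tested, MUC1 was higher in IVP discs (log2 fold change 1.10, edgeR adjusted p = 0.0162), and had 0.90 in the EEM (adjusted p = 0.0729). The other 3 (LTF, OXTR and PGR) had -1.51, -0.96 and 0.00 in the disc without a call. The uterus list summed to 4.46 to 23.5 CPM in IVP and 6.08 to 12.8 CPM in IVV discs, with SERPINA14 at the floor in both. The neural markers summed to 2.94 to 14.2 CPM (median 7.62) in IVP and 2.30 to 48.9 CPM (median 16.8) in IVV discs. OTX2 and PAX6, the neural markers tested, had log2 fold changes of -1.24 and -0.69 (edgeR, adjusted p = 0.0985 and 0.606). The part of any of these cell types in the values that follow was not tested.

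UNC5C, a netrin receptor that mediates repulsion, was measured at 0.185 (IVP10), 0.363 (IVPF15), 0.721 (IVPF10), 0.887 (IVPF14), 1.13 (IVP11), 1.16 (IVPF13) and 1.18 CPM (IVP14) in the 7 IVP discs. The 9 IVV discs held 0.746 (VE19), 2.27 (VE24), 2.27 (VE3), 3.83 (VE26), 4.89 (VE4), 6.10 (VE28), 6.95 (VE29), 8.02 (VE5) and 8.19 CPM (VE6). Thus 8 of 9 IVV discs lay above every IVP disc, and VE19 lay within the IVP range. The means were 0.804 ± 0.402 (SD, n = 7) and 4.81 ± 2.7 CPM (SD, n = 9), with a log2 fold change of -2.60 ± 0.47 (SE, edgeR, adjusted p = 0.00129). Its call held under each alternative tried, XIST as a covariate included (log2 fold change -2.7, edgeR adjusted p = 0.00959).

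ROBO2, a slit receptor, was at 3 to 6 counts in each of the 7 IVP discs, or 0.0518 to 0.114 CPM (median 0.0771). IVV discs held 0.158 (VE4) to 2.54 CPM (VE5), with a median of 0.718 CPM. ROBO2 reached 10 counts in 8 libraries, all of them IVV discs, so its levels are given as a description with no test. EPHB1, a receptor of B-class ephrins, was also near the floor in IVP discs, at 0.0478 to 0.0864 CPM (3 to 5 counts). In IVV discs it ran from 0.0615 (VE5) over a median of 0.383 to 0.860 CPM (VE4), with 8 of 9 above every IVP disc. It had enough counts to be tested in 9 of 16 fits without 1 embryo, the fit without VE4 not among them. The order of the IVV discs thus differed between these receptors, VE5 being highest for ROBO2 and lowest for EPHB1.

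NRP1 ranged from 0.444 (IVP10) to 2.11 CPM (IVP11) in IVP discs, with a median of 1.45, and from 1.49 (VE19) to 5.56 CPM (VE6) in IVV discs, with a median of 2.91. Of the IVV discs, 6 of 9 lay above every IVP disc, and the other 3 (VE19, VE24 and VE4) lay within the IVP range. The means were 1.40 ± 0.529 (SD, n = 7) and 3.33 ± 1.57 CPM (SD, n = 9), with a log2 fold change of -1.28 ± 0.35 (SE, edgeR, adjusted p = 0.0307). This call is narrow: it was lost when any of 9 of the 16 embryos was left out, with fold changes of -1.29 to -1.12 and edgeR adjusted p of up to 0.0735, without IVPF13 and IVPF14 (adjusted p = 0.0825), with 2 surrogate variables (adjusted p = 0.0596), with the letter ending the sample titles as a term (adjusted p = 0.0527) and with XIST as a covariate (adjusted p = 0.0828).

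SEMA3B, a secreted ligand of neuropilins, held 0 (IVPF14), 0.458 (IVPF13), 0.481 (IVP10), 0.634 (IVP11), 0.946 (IVPF10), 1.74 (IVP14) and 2.06 CPM (IVPF15) in the IVP discs. IVV discs ranged from 1.81 (VE24) to 8.50 CPM (VE6), with a median of 3.39, so IVPF15 was the one IVP disc inside the IVV range. The log2 fold change was -2.36 ± 0.56 (SE, edgeR, adjusted p = 0.0112), and -1.89 (adjusted p = 0.0176) without IVPF13 and IVPF14. With XIST as a covariate it was -2.01 and was not called (edgeR, adjusted p = 0.101).

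SEMA4B, a membrane-bound semaphorin, was the one member called higher in IVP discs. They held 61.2 (IVP10) to 196 CPM (IVP14), with a median of 143, and IVV discs 29.0 (VE26) to 79.7 CPM (VE24), with a median of 57.0. Of the IVP discs, 6 of 7 lay above every IVV disc, IVP10 being the exception. The means were 133 ± 48.8 (SD, n = 7) and 56.7 ± 18.4 CPM (SD, n = 9), with a log2 fold change of 1.21 ± 0.25 (SE, edgeR, adjusted p = 0.00471), or 1.33 with XIST as a covariate (adjusted p = 0.0661). SEMA3C, a secreted cue of the outflow tract and of vessels, had disc means of 7.34 ± 3.56 (SD, n = 7) and 3.90 ± 2.06 CPM (SD, n = 9) and a log2 fold change of 1.08 ± 0.33 that just missed the threshold (SE, edgeR, adjusted p = 0.0503). Over the other fits its adjusted p ran from 0.00878 (DESeq2) to 0.658 (XIST as a covariate), with 0.178 for no surrogate variable and 0.126 for 2.

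The other 50 members tested in the disc had log2 fold changes of -1.91 to 0.76. SLIT2, a ligand of ROBO2, had a log2 fold change of -1.91 ± 0.61 (SE, edgeR, adjusted p = 0.0602), and PLXNA2 and SEMA5B had -1.15 ± 0.37 and -0.97 ± 0.32 (SE, adjusted p = 0.061 and 0.0726). These 3 and ROBO1 and SEMA6A were called lower when VE4 was left out, as was EFNB3, giving 11 calls in place of 6, with EPHB1 too low for that fit. With XIST as a covariate SLIT2, SEMA5B, ROBO1 and SEMA6A were called lower (log2 fold changes of -2.62, -1.50, -2.19 and -2.48, edgeR adjusted p from 0.0314 to 0.0468), with UNC5C and ROBO2. XIST nearly moved with the procedure in the discs, as only VE3 and VE5 of the IVV discs were low. For SLIT2, SEMA5B, ROBO1 and SEMA6A the highest IVV disc was VE5. VE3 lay within the IVP range for SLIT2 (0.279 CPM), ROBO1 (1.41 CPM) and SEMA6A (1.28 CPM). How far these calls rest on VE5 was not tested. In edgeR's test with all discs neither netrin, none of 8 plexins and none of 7 ephrins was called, while DESeq2 called PLXNA2 (log2 fold change -1.14, adjusted p = 0.0161) and EFNB3 (-1.19, adjusted p = 0.0393) lower in IVP discs. SEMA6D, too low in most discs for the test, held 0 to 0.191 CPM in IVP discs and 0.0175 to 2.18 CPM in IVV discs.

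IVV discs differed widely among themselves. The disc of VE5 was the highest of the 9 for 23 of 57 members (40.4%), against 16.7% of all genes tested, while that of VE4 was the lowest for 14 (24.6%), against 9.17% of all genes. VE5 was highest for NTN1 (19.1 CPM, the lowest disc being VE4 at 0.860), SEMA6A (19.5 against 0.140 CPM), ROBO1 (12.2 against 0.544 CPM) and ROBO2. VE6 was highest for UNC5C, NRP1, SEMA3B and EPHB2.

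**Figure D3:**
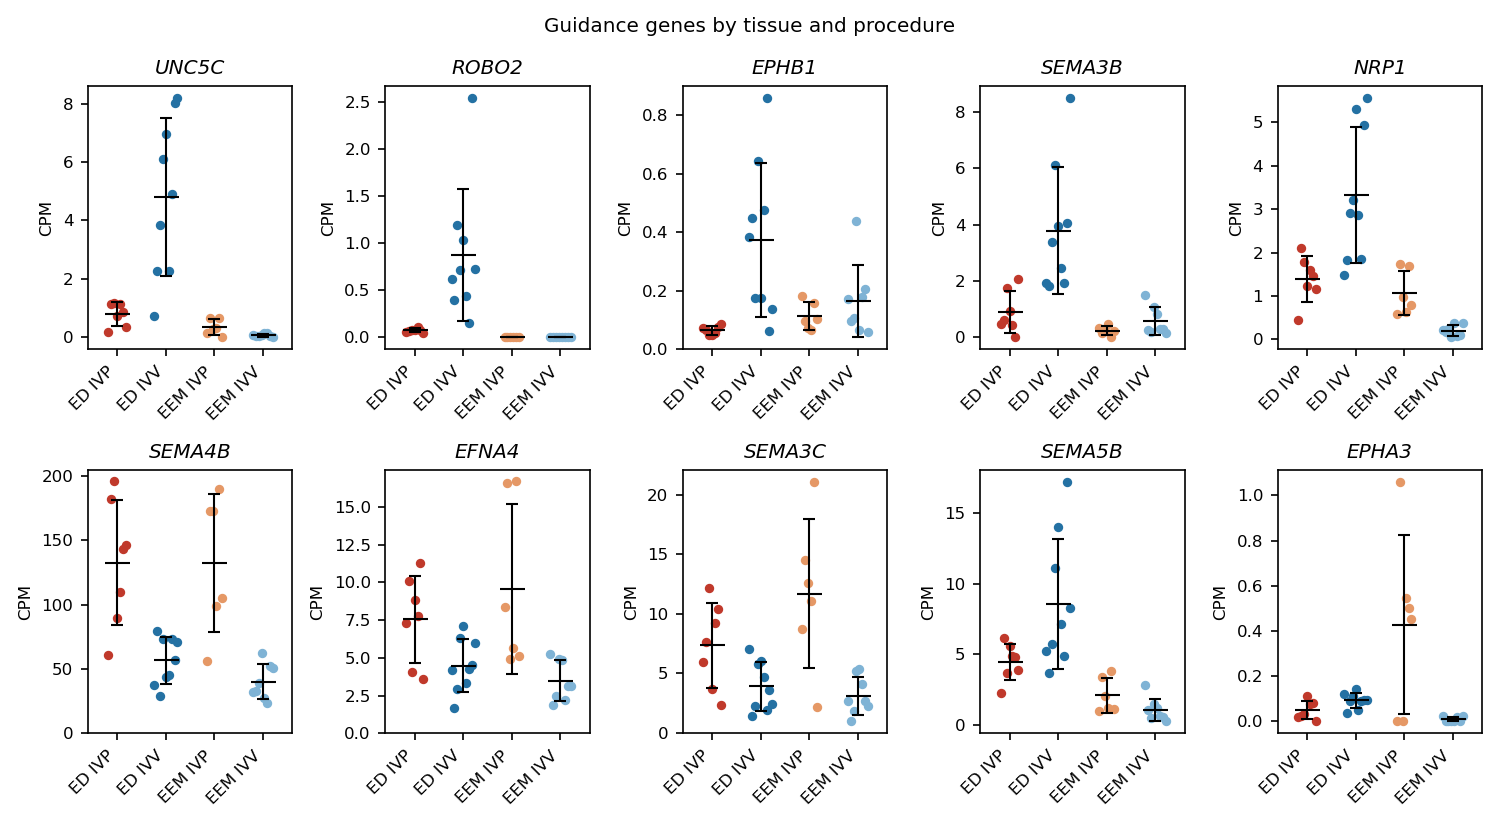
Level in CPM of 10 guidance genes in the 4 groups: each point is a library, the line and bars the mean and SD (n = 7 ED IVP, 9 ED IVV, 6 EEM IVP and 8 EEM IVV). ROBO2 lies near 0 in every IVP disc, NRP1 is lower in IVP discs but higher in IVP EEM, and SEMA4B is higher in IVP embryos in both tissues.

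In the EEM each called member was higher in IVP embryos. In the disc NRP1 and SEMA5B had log2 fold changes below 0, while SEMA4B, SEMA3C and EFNA4 had 1.21, 1.08 and 0.76. Of 47 members tested, 5 were higher in IVP embryos and 0 lower, where 2.29% of all 14718 genes tested were called higher and 1.52% lower. The median log2 fold change of the 47 was 0.19, beside 0.00 for all genes, and 8 members had an unadjusted p under 0.05, as did 13.7% of all genes. Of the 5, 3 are semaphorins, 1 is an ephrin and 1 a neuropilin. Of the markers of the membranes themselves, 0 of 9 tested for trophoblast and 0 of 7 for hypoblast with 10 counts in a library of each procedure were called, while TTR reached 10 counts only in IVV EEM. Since all IVP EEM had XIST under 1 CPM and 6 of 8 IVV EEM did not, this level moved with the procedure. With XIST as a covariate all 5 kept their direction and none was called, with log2 fold changes of 1.08 to 1.61 (edgeR, adjusted p from 0.14 to 0.712).

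NRP1 in the EEM of IVP embryos was 0.591 (IVP10), 0.632 (IVPF13), 0.804 (IVPF9), 0.978 (IVP14), 1.68 (IVPF14) and 1.73 CPM (IVP11). The EEM of IVV embryos held 0.0463 (VE28), 0.0895 (VE3), 0.0939 (VE4), 0.161 (VE24), 0.214 (VE19), 0.237 (VE26), 0.375 (VE29) and 0.389 CPM (VE5). All 6 IVP libraries thus lay above all 8 IVV libraries, VE3 and VE5 with their low XIST included. The log2 fold change was 2.42 ± 0.44 (SE, edgeR, adjusted p = 0.00124), with means of 1.07 ± 0.512 (SD, n = 6) and 0.201 ± 0.129 CPM (SD, n = 8), and it stayed called when each embryo was left out in turn.

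SEMA4B held 56.2 (IVP10), 98.6 (IVPF13), 105 (IVPF9), 173 (IVP11), 173 (IVP14) and 190 CPM (IVPF14) in the IVP membranes. In IVV membranes it held 23.9 (VE3) to 62.6 CPM (VE28), with a median of 36.3, so 5 of 6 IVP libraries lay above all IVV libraries. Its log2 fold change was 1.73 ± 0.27 (SE, edgeR, adjusted p = 0.000301). IVP10 was the lowest IVP embryo for SEMA4B in both tissues.

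SEMA3C held 2.15 (IVPF9), 8.76 (IVP10), 11.1 (IVPF13), 12.6 (IVP14), 14.5 (IVP11) and 21.1 CPM (IVPF14) in IVP membranes and 0.950 (VE24) to 5.38 CPM (VE29) in IVV membranes, with a median of 2.63. All but IVPF9 lay above every IVV library, and the log2 fold change was 1.98 ± 0.39 (SE, edgeR, adjusted p = 0.00282). EFNA4, an ephrin anchored to the membrane by a lipid tail, held 4.96 to 16.7 CPM (median 7.02) against 1.88 to 5.28 CPM (median 3.13), with 4 of 6 IVP libraries above all IVV libraries. Its log2 fold change was 1.59 ± 0.30 (SE, edgeR, adjusted p = 0.00197).

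SEMA5B, a membrane-bound semaphorin, overlapped more, at 0.978 to 3.81 CPM in IVP and 0.292 to 2.82 CPM in IVV membranes, with a log2 fold change of 1.38 ± 0.36 (SE, edgeR, adjusted p = 0.0269). It lost its call when any of 8 of the 14 embryos was left out (fold changes of 1.01 to 1.39, edgeR adjusted p of up to 0.0903), and with no surrogate variable (0.99, adjusted p = 0.36), 2 surrogate variables (0.89, adjusted p = 0.114) or the title letter as a term (1.33, adjusted p = 0.0574). The other 42 members tested had log2 fold changes of -0.69 to 0.78 and a smallest adjusted p of 0.248 (edgeR).

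EPHA3, a receptor of A-class ephrins, was too low in most EEM libraries for the test and is named here because of its values. It held 0.454 (IVPF9), 0.501 (IVPF14), 0.545 (IVPF13) and 1.06 CPM (IVP11), or 25 to 54 counts, in 4 of 6 IVP membranes, and 0 in IVP10 and IVP14. All 8 IVV membranes had at most 1 count, and discs had at most 9. Against the floor of 3 counts per library the IVP mean of 0.427 CPM was at least 7.25-fold higher, given as a description with no test since EPHA3 is a member only through these 4 libraries.

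The tissue difference itself depended on the procedure for 3 members. In the 13 embryos with both tissues the interaction was called for NRP1, UNC5C and SEMA4C, each with a smaller ED over EEM difference in IVP embryos, where 0.918% of 16784 genes tested were called in this direction and 0.107% in the other. Of 59 members, 14 had an unadjusted p under 0.05 (10.3% of all genes did), and the median was -0.64 on the log2 scale beside -0.04 for all genes. ROBO2, SEMA3A, SEMA3G and SEMA6D, which entered the test only through the discs, are part of this median but not of the 14.

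For NRP1 the log2 CPM of the disc minus that of the membranes of the same embryo ran from -0.38 (IVP10) to 1.29 (IVPF13) in the 5 IVP embryos, with a median of 0.28. In the 8 IVV embryos it ran from 2.61 (VE19) to 5.30 (VE28, whose membranes held 2 counts), with a median of 3.62, without overlap. The interaction was -3.62 ± 0.47 (SE, log2, edgeR adjusted p = 0.000475), from a tissue difference of 3.96 in IVV embryos and 0.35 in IVP embryos, and it joins a lower level in the IVP disc to a higher one in the IVP membranes.

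UNC5C was at 3 counts or fewer in the membranes of 5 of the 8 IVV embryos, so its log2 ratio of disc to membrane CPM is a lower bound there, taken against 3 counts. The ratio ran from 0.18 (IVP10) to 2.12 (IVP14) in IVP embryos. It was 3.13 (VE19), 3.99 (VE3) and 5.49 (VE29) in the IVV embryos above the floor, and at least 5.56 (VE24) to at least 7.10 (VE5) in the other 5, so every IVV embryo lay above every IVP embryo. Its interaction was -4.53 ± 0.62 (SE, log2, edgeR adjusted p = 0.000793), a size that depends on the prior count. In the membranes, where it was too low for the test, 5 of 6 IVP libraries held 0.163 to 0.668 CPM and IVPF9 held 0, against 0.0195 to 0.154 CPM in IVV membranes.

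SEMA4C, a ligand of B-class plexins, had an interaction of -2.08 ± 0.48 (SE, log2, edgeR adjusted p = 0.0404). Its discs held 1.16 CPM in IVPF13 and 1.35 CPM in IVPF14 but 6.78 to 24.6 CPM in the other 5 IVP embryos and 7.97 to 22.7 CPM in IVV embryos. Without these 2 embryos the interaction was -1.25 and was not called (edgeR, adjusted p = 0.106). Leaving out any of 9 of the 13 embryos also lost the call, with values of -2.29 to -1.93 and edgeR adjusted p of up to 0.111. PLXND1, a plexin of vessels, was more than 4-fold below its group in the same discs.

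**Figure D4:**
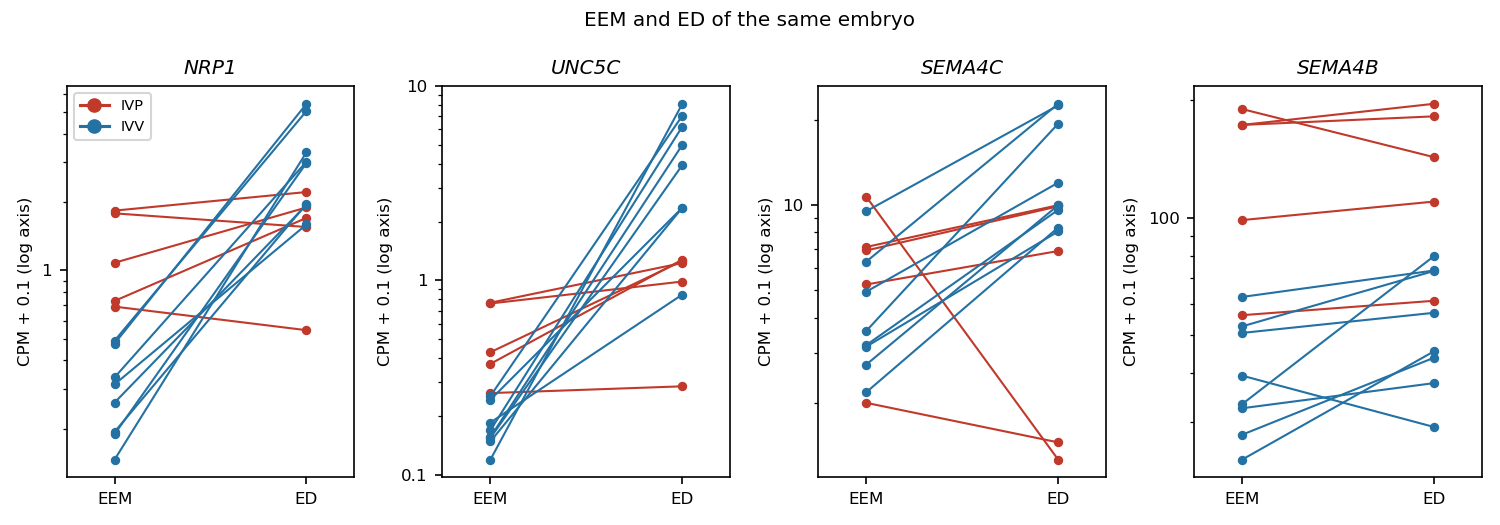
EEM and ED of the same embryo for NRP1, UNC5C, SEMA4C and SEMA4B: each line is 1 of 13 embryos (red 5 IVP, blue 8 IVV), with CPM plus 0.1 on a log axis. For NRP1 the blue lines rise in every embryo while the red lines start higher and differ less between tissues, from -0.38 (IVP10) to 1.29 (IVPF13) on the log2 scale, and for SEMA4C the falling red lines are IVPF13 and IVPF14.

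The 29 members higher in the disc had a smaller tissue difference in IVP than in IVV embryos in 27 cases, with medians of 1.06 and 2.80 on the log2 scale. Of all 2412 genes higher in the disc 83.8% did the same, with medians of 1.12 and 2.17. Among the members with 10 counts in a library of each tissue it was 24 of 26 (92.3%), with medians of 0.96 and 2.72, beside 83.3% of 1939 genes, with medians of 0.89 and 1.73. Taken within the 5 IVP embryos, 9 members were called higher in the disc, and within the 8 IVV embryos 29 were. Of all genes tested 4.18% and 15.6% were called higher. The 29 of the IVV embryos differ from the 29 above: EPHB1 and SEMA4B are among them, EPHB3 and EFNB1 are not. The 9 are EPHB2, NTN1, NRP2, PLXNA2, PLXNC1, ROBO1, SEMA4G, SEMA6A and SLIT3, each also called higher within the IVV embryos.

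Guidance genes with other names were counted from lists chosen with results of these data known. Of 20 further cues and receptors 17 were tested in the disc, where 5 were lower in IVP embryos and 0 higher, beside the 4.95% and 1.40% of all genes given above: KDR, the VEGF receptor that marks early vessels, CNTN2, DSCAML1, NTNG1 and L1CAM, an adhesion molecule of axons that is named after its value was seen. KDR fell by 5.10 on the log2 scale (mean 0.412 against 13.5 CPM, edgeR adjusted p = 2.38e-05), and CNTN2 fell by 4.25 (0.108 against 1.98 CPM, adjusted p = 0.000121). CNTN2 and DSCAML1 (mean 0.0986 CPM) averaged under 10 counts in IVP discs. A filter of 10 counts in every library therefore removes both, and the count of 5 depends on the filter. In the EEM 0 of 9 tested were called. Between tissues 11 of 17 were higher in the disc and 0 lower, 2 of the 17 (RGMA and VEGFC) having entered through the discs alone, beside 14.4% and 10.1% of all genes. KDR was the one called for the interaction. It is also counted among the blood and endothelium markers.

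Of 50 genes for signalling inside the cell, 49 were tested in the disc and 6 were lower in IVP embryos, beside 4.95% of all genes. The 4 with the smallest p were DPYSL3 (log2 fold change -2.04, edgeR adjusted p = 0.000428), DPYSL4 (-2.56, adjusted p = 0.000582), CHN1 (-2.90, adjusted p = 0.00083) and CRMP1 (-1.59, adjusted p = 0.00945). DPYSL3, DPYSL4 and CRMP1 encode collapsin response mediator proteins, which carry the semaphorin signal to the cytoskeleton, and CHN1 encodes a GTPase-activating protein that acts below Eph receptors. Between tissues 10 of 49 were higher in the disc and 3 lower, beside 14.4% and 10.1% of all genes, with CHN1 and DPYSL4 entering through the discs alone, and 0 were called for the interaction. In the EEM 1 of 46 was called, RND1, a GTPase that binds plexins (log2 fold change -1.36, edgeR adjusted p = 0.0227), where 1.52% of all genes were called lower. The median over the list was -0.02 in the disc and 0.03 in the EEM.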

How the data were processed

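RNA was measured in 30 libraries (7 ED and 6 EEM IVP, 9 ED and 8 EEM IVV). The deposited values are raw counts per gene and library. Per the labels and the study's methods, the authors prepared non-stranded, poly(A)-selected libraries, filtered the reads with SOAPnuke and aligned them to ARS-UCD1.3; the submitters' processing notes name FastQC 0.11.9, Trimmomatic, STAR 2.7.0b and featureCounts of Subread 2.0.3. Without strand, overlapping genes share reads. Symbols for 31630 of 35092 gene IDs came from RefSeq's annotation of ARS-UCD2.0, whose positions were not used. Library totals were 48713218 to 63037371 counts, and intervals and floors (3 counts per library) cover counting error only.

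Each tissue was tested with edgeR 4.0.16 in R 4.3.3: TMM, filterByExpr with at least 10 counts, the quasi-likelihood test over all genes with 1 surrogate variable from svaseq (sva 3.50.0), since the study controlled morphology with sva, and Benjamini-Hochberg adjustment at 0.05. ED and EEM, and the interaction, were tested in 26 libraries of 13 embryos with embryo as a block, as titles name the embryo. Deviations of both tissues of an embryo from their group means correlated at -0.19 to 0.64 (median 0.40, over 0.1 in 12 of 13). The value of -0.19 is that of IVPF13, whose pair is part of the paired and interaction fits. Log2 CPM used a prior count of 2. Within a tissue each library is a separate embryo, and which cow it came from is not in the labels.

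Members and lists were chosen with earlier results of these data known. Values by embryo are given for members called for procedure or interaction, for SEMA3C, UNC5C and NRP1, and for the 5 members with the smallest p between tissues, and of other genes at most 4 per list and comparison by p. NTN1, PLXNC1, ROBO1, EPHA3, SEMA6D, PLXND1 and others beyond these have values as members. Alternatives were other numbers of surrogate variables, the letter ending the sample titles, XIST as a covariate, DESeq2 1.42.0, RLE size factors, other filters, no block and each embryo left out. Halved counts (19289 entries held 2 counts and 15257 held 1, as when mates are counted apart) and leaving out IVPF13 and IVPF14 were added after seeing the data. The scripts were tested on simulated data. Methylation data were not analysed here.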

Additional observations from a re-analysis of the deposited data

Results flagged for a closer look

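Among the log2 CPM of the 15 members with values by embryo, searched in 58 groups of libraries, 3 libraries lay far from the rest of their group. Chance sets apart about 1 group in 20, which over the 58 groups is about as many as were found. NRP1 was at -1.06 in the disc of IVP10 (0.444 CPM, 24 counts), the other IVP discs lying at 0.28 to 1.10. SEMA3B was at -4.78 in the disc of IVPF14 and at -4.78 in its EEM, with 0 counts in both tissues of that embryo, while the other IVP discs lay at -1.02 to 1.06 and the other IVP EEM at -2.37 to -0.95. The value of -4.78 is that of 0 counts, so the size of this gap is set by the prior count. The tissue difference differed between IVP and IVV embryos, by a test of the difference itself, for UNC5C (-4.53 on the log2 scale), NRP1 (-3.62) and SEMA4C (-2.08).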

How the results depend on the processing

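Of 6 members called in the disc, DESeq2 gave 12, no filter on low counts 11 and at least 10 counts in every library 3, and leaving out 1 embryo gave 4 to 11 (11 without VE4). The 5 called in the EEM became 0 with XIST as a covariate and 4 to 5 without 1 embryo. The 29 called between tissues became 11 with at least 10 counts in every library, which removes genes near 0 in the EEM, and 23 to 32 without 1 embryo. The 3 called for the interaction became 5 with DESeq2, 5 with no filter, 0 with at least 10 counts in every library, and 2 to 4 without 1 embryo. Without the replicate block 25 members were called between tissues in the same 26 libraries and 28 in all 30, against 29 in the paired fit, and 2 for the interaction in either case, SEMA4C losing its call (adjusted p = 0.206 and 0.901). Without IVPF13 and IVPF14 the 4 counts were 6, 5, 31 and 2. The other counts of members under alternatives stayed within 1.5 times the main one, which does not cover the counts of the further lists. With XIST as a covariate, though, the 6 called in the disc were all lower in IVP embryos, only UNC5C and ROBO2 being among the main 6. Of 534 values of single members under alternatives, 482 kept their side of the threshold, 45 fell below it, 7 passed it and 0 changed direction once called; the 11 that changed sign uncalled are all of SEMA3C between tissues. The cause of these changes was not tested. Members at a few counts per library (ROBO2, EPHB1, EPHA3, SEMA6D) are limited by depth.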
